A study of Mus musculus with 12 samples.

Results

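The cadherin and protocadherin genes were followed through differentiation of 3 mouse embryonic stem cell (ESC) lines. The set was taken by name, as every symbol of the deposited count table made of Cdh and a number or beginning with Pcdh, except Cdh5, the vascular endothelial cadherin. This gave 93 of 23336 genes: 5 type I classical cadherins, 12 type II classical cadherins, 5 other cadherins, 12 non-clustered protocadherins and 59 clustered protocadherins, of which 15 belonged to the Pcdha, 22 to the Pcdhb and 22 to the Pcdhg cluster. The WT female line was Pgk12.1, the second female line carried the genotype label RlimKO, the male WT line was E14, and the labels give the strain as C57BL/6 for all 12 samples. Undifferentiated cells were kept with LIF, and differentiated cells had spent 3 days as embryoid bodies without LIF and then 6 days in further culture at 7.5% oxygen. Each line and state had 2 libraries, and each combination of genotype and sex was 1 line, so genotype, sex and line cannot be told apart. The series asked whether X chromosome inactivation in such cells needs Rlim, an X-linked ubiquitin ligase gene.

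Cadherins are membrane proteins that bind their like on the next cell in the presence of calcium. Classical cadherins hold on to the actin skeleton through catenins: Cdh1 (E-cadherin) is the cadherin of stem cell colonies and epithelia, Cdh2 (N-cadherin) that of neural, cardiac and mesenchymal cells, and loss of the first with gain of the second is the textbook cadherin switch of cells leaving an epithelial state. Protocadherins adhere more weakly, and the clustered genes of chromosome 18, each read from its own promoter and, in the alpha and gamma clusters, spliced to constant exons shared by the cluster, are best known for giving neurons a surface identity.

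Libraries held 2011919 to 5401940 counts in genes, of which the ribosomal RNA precursor Rn45s took 6.36% to 67.7%. Rlim had 160 and 150 CPM (counts scaled to 1e6 of the effective library size) in undifferentiated RlimKO-labelled libraries against 267 and 282 in WT female ones, but 290.1 and 299 against 258 and 266 after differentiation. Counts over the whole gene do not show an allele that still makes RNA, and the deleted part is not given in the sources used here, so the line is called RlimKO-labelled. Summed over 10 pluripotency markers, undifferentiated libraries held 1616 to 1920 CPM and differentiated ones 92.1 to 224, while 9 fibroblast markers went from 1.75 to 65.0 CPM to 3094 to 11777 CPM. The differentiated male libraries stood apart from each other: replicates 1 and 2 held 9672 and 3094 CPM of fibroblast, 474 and 1092 CPM of simple epithelium, 595 and 69.1 CPM of blood and endothelium and 228 and 489 CPM of cardiac markers. Of the cardiac sums Ttn alone held 110 and 230 CPM, and in undifferentiated libraries Ttn already held 107 to 199 CPM. Replicate 2 also had a title number outside the run of the other libraries, the lowest Rn45s share at 6.36% and the most gene counts. Replicate 1 had 22.5% Rn45s. The labels name no batch for either of the pair. Male values are therefore given by library, and the male results most moved by this pair also with each library of the pair left out.

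Of the 93 members, 7 had no count in any library, 44 had counts too low to test and 42 were tested in an edgeR quasi-likelihood model of all 12 libraries. A member was said to rise or fall when its adjusted p over all 12814 tested genes was below 0.05. With differentiation, 30 members rose and 1 fell in WT females, where 26.5% of all tested genes rose and 22.2% fell. In the RlimKO-labelled line 27 rose and 1 fell, against 26.4% and 21.6% of all genes, and in males 32 rose and 1 fell, against 28.7% and 25.4%. The same 22 members rose in each of the 3 lines, Cdh1 fell in each, and Cdh24, Pcdhb22, Pcdhga1 and Pcdhgb1 were called in none. These counts are a description only, because 29 of the 42 members were abundant enough to be tested through differentiated libraries alone. On leaving out 1 library, RlimKO-labelled calls numbered 18, without undifferentiated or differentiated replicate 2 of that line, and male calls to 20, without undifferentiated male replicate 2. Among the other 13, which reached the limit of 2.796 CPM in undifferentiated libraries, 10 rose and 1 fell in WT females, 5 rose and 1 fell in the RlimKO-labelled line, and 8 rose and 1 fell in males.

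**Figure D1:**
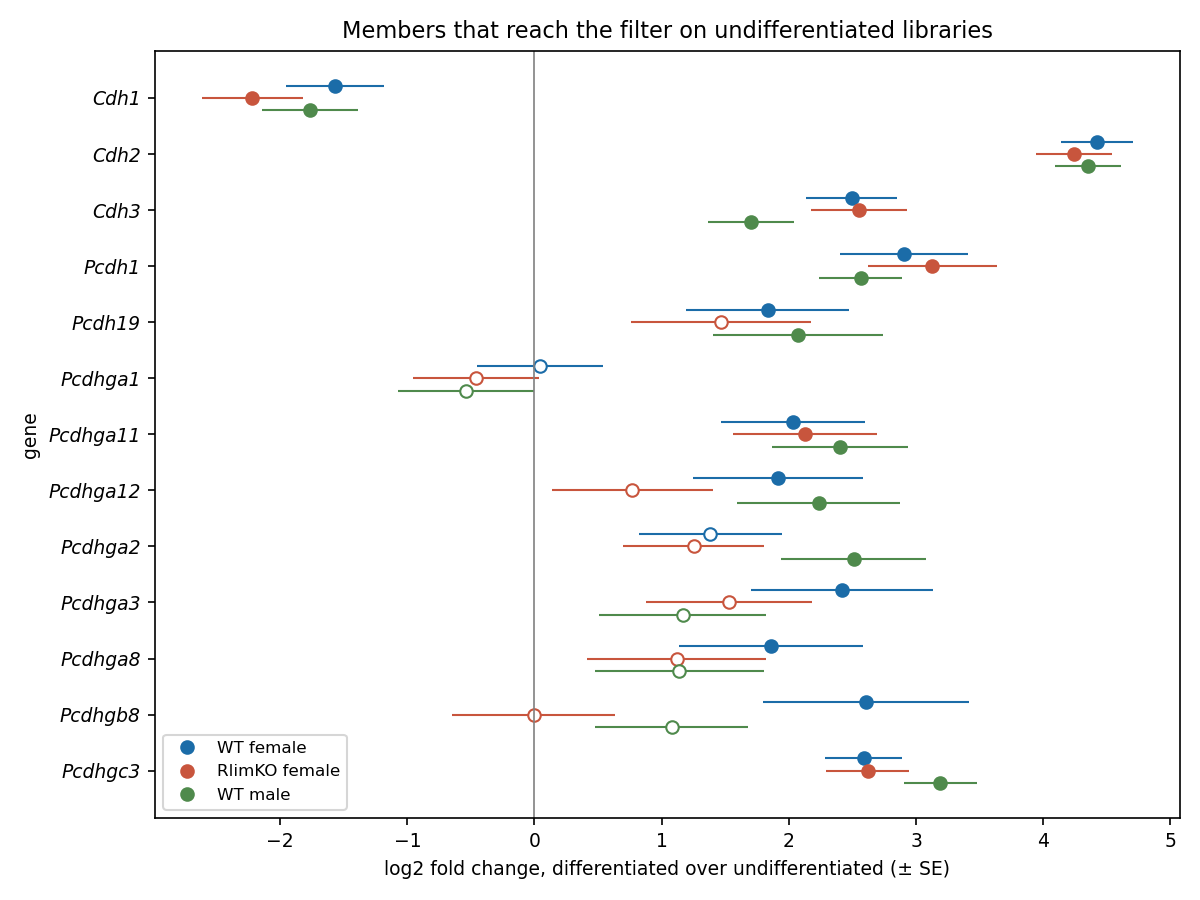
Log2 fold change on differentiation (horizontal axis, differentiated over undifferentiated, bars 1 SE) of the 13 members abundant enough in undifferentiated libraries, in each line; filled points passed the edgeR test and open points did not. Cdh1 lies left of 0 in all 3 lines, Cdh2 lies farthest right at 4.42, 4.24 and 4.35, and Pcdhga1 lies beside 0.

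Cdh1 (ENSMUSG00000000303, chr8:106603351-106670246, plus strand, mm10 coordinates from GENCODE M21), the E-cadherin gene, was the most abundant classical cadherin of undifferentiated cells, with 253 and 249 CPM in WT female, 314 and 276 in RlimKO-labelled and 332 and 289 in male libraries. After differentiation it stood at 88.0 and 80.8 CPM in WT female, 63.8 and 62.9 in RlimKO-labelled and 36.3 and 143 in male libraries. Every differentiated library lay below every undifferentiated one. The log2 fold change was -1.57 ± 0.38 in WT females (edgeR adjusted p = 0.00351), -2.22 ± 0.40 in the RlimKO-labelled line (edgeR adjusted p = 3.74e-04) and -1.77 ± 0.37 in males (edgeR adjusted p = 0.00113). The male fall was -1.06 ± 0.15 without differentiated replicate 1 and -3.03 ± 0.18 without replicate 2. In bulk samples such as these, fewer cells of a type and less RNA per cell cannot be told apart. Of the 10 pluripotency markers, 9 likewise fell in WT female and male cells and 8 in RlimKO-labelled cells, and their part in its change was not tested.

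Cdh2, the N-cadherin gene, was near the limit of detection in undifferentiated cells, with 5.25 and 4.29 CPM in WT female, 4.67 and 3.41 in RlimKO-labelled and 6.31 and 3.97 in male libraries. Differentiated libraries held 106 and 99.4 CPM in WT female, 75.97 and 75.3 in RlimKO-labelled and 119 and 84.0 in male libraries, and the states did not overlap. The rise was 4.42 ± 0.28 in WT females (edgeR adjusted p = 2.71e-08), 4.24 ± 0.30 in the RlimKO-labelled line (edgeR adjusted p = 5.14e-08) and 4.35 ± 0.26 in males (edgeR adjusted p = 8.46e-09). The male rise held at 4.16 ± 0.23 and 4.66 ± 0.23 without differentiated replicate 1 or 2, so the libraries that differed nearly 4-fold in Cdh1 gave similar Cdh2 values.

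Cdh3, the P-cadherin gene, lies 46.054 kb before Cdh1 on chromosome 8 (chr8:106510891-106557297, plus strand) and encodes another type I cadherin, best known from placenta and basal epithelia. Undifferentiated libraries held 38.9 and 47.2 CPM in WT female, 31.5 and 31.5 in RlimKO-labelled and 59.8 and 48.9 in male libraries. Differentiated libraries held 256 and 229 CPM in WT female, 187 and 183 in RlimKO-labelled and 265 and 90.7 in male libraries. Thus the neighbours moved in opposite directions: Cdh3 rose by a log2 fold change of 2.49 ± 0.36 in WT females (edgeR adjusted p = 5.28e-05), 2.55 ± 0.37 in the RlimKO-labelled line (edgeR adjusted p = 6.47e-05) and 1.70 ± 0.34 in males (edgeR adjusted p = 6.71e-04). In males it was 0.82 ± 0.16 without differentiated replicate 1 and 2.36 ± 0.15 without replicate 2, both called.

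**Figure D2:**
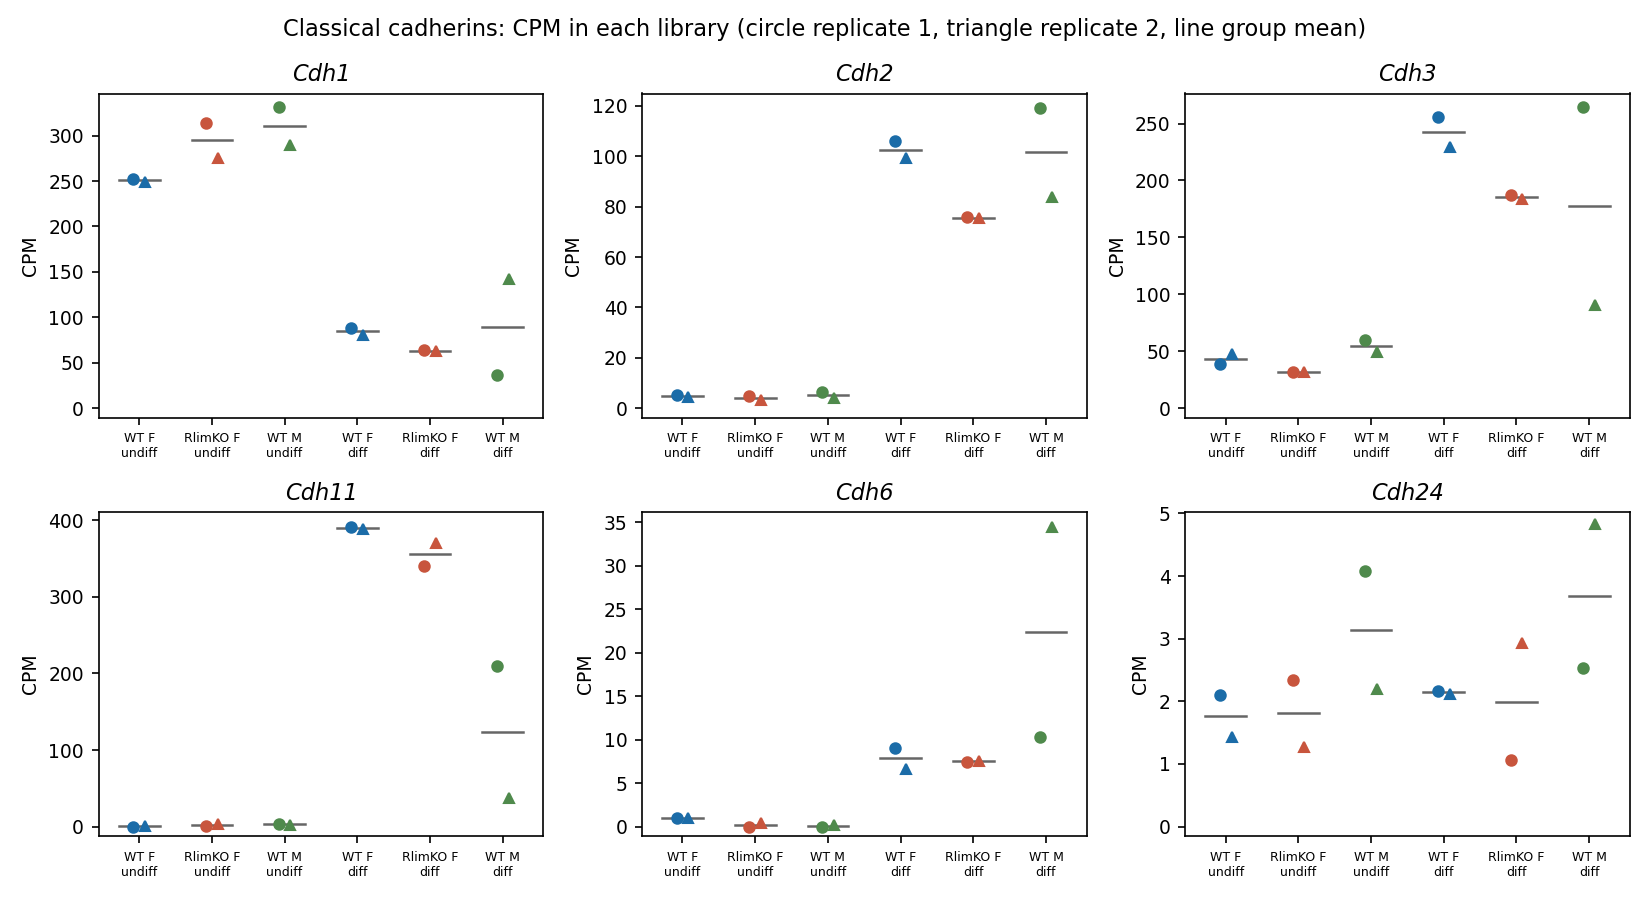
CPM (vertical axis, linear) of 6 classical cadherins in each library of the 6 groups (F female, M male; circle replicate 1, triangle replicate 2, grey line the group mean). Cdh1 is highest in undifferentiated and Cdh2, Cdh3 and Cdh11 in differentiated libraries, and the differentiated male pair is spread widest, from 36.3 to 143 CPM in Cdh1 and from 37.1 to 209.6 CPM in Cdh11.

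Among type II cadherins, Cdh11, a mesenchymal cadherin known from osteoblasts and fibroblasts, went from almost nothing to the highest CPM of the family in both female lines. In each differentiated male library Cdh3 and Pcdh7 stood above it. Undifferentiated libraries held 0 and 0.953 CPM in WT female, 0.584 and 3.84 in RlimKO-labelled and 3.71 and 2.204 in male libraries, and differentiated ones 391 and 388 CPM in WT female, 340.0 and 370.4 in RlimKO-labelled and 209.6 and 37.1 in male libraries. The RlimKO-labelled rise was a log2 fold change of 7.17 ± 0.81 (edgeR adjusted p = 5.69e-06) and the male one 5.42 ± 0.74 (edgeR adjusted p = 2.51e-05). With 2 counts in undifferentiated WT females, the ratio there was 780.1-fold (counting interval 216 to 6445), the interval being an exact 95% one for counting error only (edgeR adjusted p = 2.86e-06). The male value was 3.78 ± 0.28 without differentiated replicate 1 and 6.28 ± 0.24 without replicate 2. Fibroblast markers were likewise lower in male replicate 2 than in replicate 1, and 8 of the 9 rose in each line, the other falling in males. Of these markers only Lum and Col6a3 in undifferentiated WT females and Dcn in the RlimKO-labelled line were at 0. Summed, undifferentiated libraries held 6.83 and 11.9 CPM in WT female, 1.75 and 61.0 in RlimKO-labelled and 65.0 and 45.2 in male libraries. The RlimKO-labelled replicate with 61.0 CPM was the one with 3.84 CPM of Cdh11. The part of such cells in the Cdh11 values was not tested.

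Cdh6, a type II cadherin of kidney and neural crest, rose from 1.05 and 0.953 CPM in WT female, 0 and 0.426 in RlimKO-labelled and 0 and 0.2204 in male libraries to 9.08 and 6.62 CPM in WT female, 7.44 and 7.56 in RlimKO-labelled and 10.3 and 34.5 in male libraries. Male replicate 2, low in Cdh11, was the highest library for Cdh6. The log2 fold change was 2.94 ± 0.78 in WT females (edgeR adjusted p = 0.0062). From 1 count in each undifferentiated group, the ratio was 30.5-fold (counting interval 5.21 to 1232) in RlimKO-labelled cells (edgeR adjusted p = 0.00186) and 194-fold (counting interval 34.5 to 7668) in males (edgeR adjusted p = 7.71e-06). The male call held without differentiated male replicate 1 or 2 (adjusted p = 2.83e-21 and 8.56e-10). The WT female call was lost without undifferentiated WT female replicate 1 (adjusted p = 0.0507) or 2 (adjusted p = 0.0633). Cdh24 was low throughout, with 2.10 and 1.43 CPM in WT female, 2.34 and 1.28 in RlimKO-labelled and 4.09 and 2.204 in male libraries before differentiation. Afterwards it had 2.17 and 2.12 CPM in WT female, 1.06 and 2.93 in RlimKO-labelled and 2.53 and 4.83 in male libraries, and was not called in any line (edgeR adjusted p = 0.776, 0.756 and 0.668).

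The composition of the classical cadherin counts summarises these changes. Cdh1 made up 81.7 ± 1.58% (mean ± SD, n = 2) of all counts of the 17 classical cadherins in undifferentiated WT females. It made up 86.6 ± 1.62% in RlimKO-labelled and 81.8 ± 1.14% in male libraries. After differentiation its share was 10.1 ± 0.242% and 9.17 ± 0.319% in the female lines, and 5.61% and 36.1% in the male libraries. Cdh11 held 46.7 ± 1.45% and 51.4 ± 1.805% of the differentiated female counts but 32.4% and 9.37% of the male ones. Cdh3 held 29.1 ± 1.202%, 26.8 ± 1.05%, and 40.96% and 22.9% in males. The summed level of the type I genes went from between 299.8 and 401 CPM to between 318 and 451 CPM per library. In WT females it went from 299.8 and 303 CPM to 451 and 411 CPM, and in the other lines the states overlapped. The summed level of the type II genes went from at most 11.1 CPM to between 77.2 and 406 CPM.

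**Figure D3:**
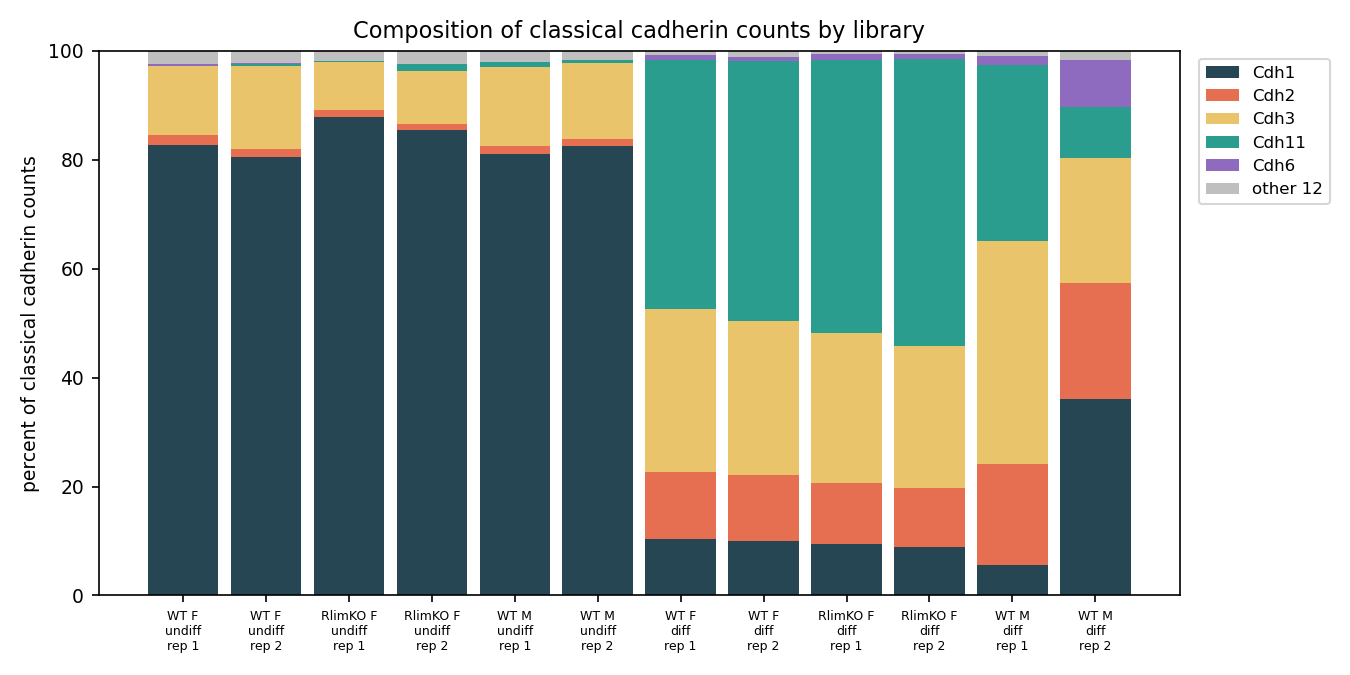
Share of all classical cadherin counts (vertical axis, percent) taken by Cdh1, Cdh2, Cdh3, Cdh11, Cdh6 and the other 12 genes in each of the 12 libraries. The undifferentiated bars are mostly Cdh1, the female differentiated bars mostly Cdh11 and Cdh3, and the differentiated male bars differ from each other, with Cdh1 at 5.61% and 36.1%.

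Genes can be compared with each other only per length, here as CPM per kb of annotated exon. On this scale Cdh1 led in undifferentiated WT females at 54.8 ± 0.578 CPM per kb, ahead of Cdh3 at 9.81 ± 1.34. In differentiated WT females the order was Cdh3 at 55.4 ± 4.29, Cdh11 at 43.8 ± 0.225, Cdh1 at 18.5 ± 1.11 and Cdh2 at 12.7 ± 0.577 CPM per kb, each step wider than the SDs of its neighbours. In differentiated RlimKO-labelled libraries Cdh3 at 42.2 ± 0.588 and Cdh11 at 39.9 ± 2.41 CPM per kb differed by no more than their spread. In males the SDs were too wide to order the genes, with Cdh3 at 40.5 ± 28.1, Cdh1 at 19.6 ± 16.4 and Cdh11 at 13.9 ± 13.7.

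Of the other cadherins, Cdh13 (T-cadherin, which is tethered to the membrane by a lipid anchor and lacks a cytoplasmic tail) and Cdh16 (kidney-specific cadherin) were tested. Cdh13 had 0 and 0 CPM in WT female, 0 and 0 in RlimKO-labelled and 0.743 and 0.2204 in male libraries before differentiation. Afterwards it had 3.55 and 5.30 CPM in WT female, 3.72 and 4.15 in RlimKO-labelled and 2.53 and 2.04 in male libraries. It rose at least 5.73-fold in WT females against a floor of 3 counts over the undifferentiated group (edgeR adjusted p = 0.00175), at least 5.43-fold in the RlimKO-labelled line (edgeR adjusted p = 0.00252) and 5.29-fold (counting interval 1.65 to 27.1) in males (edgeR adjusted p = 0.0303). The male call was lost in 6 of the 12 fits with a library removed, with adjusted p up to 0.269. Cdh16 had no count in any undifferentiated library, and 0.789 and 1.06 CPM in WT female, 4.25 and 4.15 in RlimKO-labelled and 3.903 and 0.215 in male libraries after differentiation. Its rise of at least 5.65-fold in the RlimKO-labelled line (edgeR adjusted p = 0.0271) and at least 3.35-fold in males (edgeR adjusted p = 0.0379) was lost in 4 and 6 of the 12 fits with a library removed, with adjusted p up to 0.141 and 0.267. The latter was the male value without differentiated replicate 1. The members with counts that were too low to test were 2 type I, 8 type II and 3 other cadherins, and their highest values in any library were 2.10 CPM for Cdh4, 5.11 CPM for Cdh9 and 2.76 CPM for Cdh23.

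Among the non-clustered protocadherins, which signal through their own cytoplasmic tails, Pcdh7 and Pcdh18 made up most of the differentiated signal: 82.8 ± 0.158% of the counts of the 12 genes in WT females, 88.1 ± 1.83% in RlimKO-labelled libraries and 77.0 ± 4.62% in males. Both were at or near 0 in undifferentiated cells. Their proximal promoters are shown because they carry the largest rises outside the classical cadherins, with that of Cdh6 as a type II gene from the same table. Each is the 250 bases before the RefSeq start on GRCm38.p6, written 5′ to 3′ on the gene's strand, with CpG dinucleotides (the letters CG) in capitals: Pcdh7 from chr5:57717831-57718080 on the plus strand, Pcdh18 from chr3:49757317-49757566 on the minus strand and Cdh6 from chr15:13173676-13173925 on the minus strand.
Pcdh7: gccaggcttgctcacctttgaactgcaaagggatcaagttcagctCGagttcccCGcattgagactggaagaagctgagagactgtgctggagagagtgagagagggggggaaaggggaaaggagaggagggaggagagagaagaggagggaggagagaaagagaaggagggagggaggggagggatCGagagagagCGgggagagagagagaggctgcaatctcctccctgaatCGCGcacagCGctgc
Pcdh18: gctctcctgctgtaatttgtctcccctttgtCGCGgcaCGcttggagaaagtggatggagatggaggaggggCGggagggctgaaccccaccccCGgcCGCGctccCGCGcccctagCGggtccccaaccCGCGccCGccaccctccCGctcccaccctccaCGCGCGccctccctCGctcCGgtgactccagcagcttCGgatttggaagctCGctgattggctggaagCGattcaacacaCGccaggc
Cdh6: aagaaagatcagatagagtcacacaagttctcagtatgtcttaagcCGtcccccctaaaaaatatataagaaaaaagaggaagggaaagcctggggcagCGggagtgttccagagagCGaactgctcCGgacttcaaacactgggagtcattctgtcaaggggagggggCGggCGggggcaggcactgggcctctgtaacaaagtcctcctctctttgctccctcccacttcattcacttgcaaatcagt
The Pcdh18 window held 23 CpG, the Pcdh7 window 7 and the Cdh6 window 6. Over 32851 RefSeq promoter windows of this length the median was 6, and 13.3%, 46.3% and 50.4% of them held at least as many as Pcdh18, Pcdh7 and Cdh6. The E-box CACCTG, the sequence bound by the Snail and Zeb repressors, was searched on both strands. It was in none of the 9 windows of the 8 tested members present in the table, and in 17.2% of all windows, and its absence says only that these letters are not in these windows. The wider CANNTG, which includes CACCTG, was in 3 of the 9 windows, once in that of Cdh6, and in 66.2% of all windows. For Cdh1, Cdh2, Cdh3 and Cdh11 no sequence is printed.

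Pcdh7 (NF-protocadherin) had 0 and 0 CPM in WT female, 0 and 0.852 in RlimKO-labelled and 1.86 and 1.102 in male libraries in undifferentiated cells. Differentiated libraries held 226 and 203 CPM in WT female, 232 and 247 in RlimKO-labelled and 223 and 94.2 in male libraries. The rise was at least 288-fold in WT females (edgeR adjusted p = 1.18e-07), 493-fold (counting interval 136 to 4071) in the RlimKO-labelled line (edgeR adjusted p = 9.68e-08) and a log2 fold change of 6.79 ± 0.49 in males (edgeR adjusted p = 9.31e-08). Without differentiated male replicate 1 or 2 the male value was 6.11 ± 0.28 or 7.35 ± 0.26. Exons of an antisense gene, 4932441J04Rik, cover 21.1% of the Pcdh7 exon bases, and reads of the pair cannot be told apart there without strand. Pcdh18 had 0 and 0 CPM in WT female, 0 and 1.705 in RlimKO-labelled and 1.49 and 1.98 in male libraries, and after differentiation 168 and 155 CPM in WT female, 131 and 133 in RlimKO-labelled and 169 and 48.1 in male libraries. It rose at least 217-fold in WT females (edgeR adjusted p = 2.20e-06) and by log2 fold changes of 7.03 ± 0.76 in the RlimKO-labelled line (edgeR adjusted p = 5.85e-06) and 5.88 ± 0.62 in males (edgeR adjusted p = 3.49e-06). The male value was 4.78 ± 0.30 without differentiated replicate 1 and 6.59 ± 0.26 without replicate 2. In both genes male replicate 2 was the lowest differentiated library.

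Pcdh11x and Pcdh19 lie on the X chromosome, and PCDH19 is known as a gene of an epilepsy that affects mainly heterozygous females. Pcdh11x had 0.525 and 0 CPM in WT female, 0 and 0 in RlimKO-labelled and 0.371 and 0.441 in male libraries before differentiation. Afterwards it had 26.2 and 24.9 CPM in WT female, 21.3 and 20.97 in RlimKO-labelled and 19.7 and 1.83 in male libraries. It rose 103-fold (counting interval 18.3 to 4076) in WT females (edgeR adjusted p = 0.00104), at least 28.5-fold in the RlimKO-labelled line (edgeR adjusted p = 0.00118) and 18.2-fold (counting interval 6.04 to 89.5) in males (edgeR adjusted p = 0.00431). The male pair differed widely in this gene, with replicate 1 near the females and replicate 2 near the undifferentiated level. The male value was 2.11 ± 0.80 without differentiated replicate 1 and 5.50 ± 0.53 without replicate 2 on the log2 scale. Pcdh19 went from 4.201 and 2.38 CPM in WT female, 3.503 and 1.705 in RlimKO-labelled and 1.49 and 1.54 in male libraries to 10.3 and 13.2 CPM in WT female, 5.84 and 7.803 in RlimKO-labelled and 11.02 and 2.69 in male libraries. It rose in WT females (1.83 ± 0.64, edgeR adjusted p = 0.0278) and in males (2.07 ± 0.67, edgeR adjusted p = 0.0171), and did not pass in the RlimKO-labelled line (1.46 ± 0.71, edgeR adjusted p = 0.102). The calls were lost without any 1 of the WT female libraries (adjusted p up to 0.2), and without differentiated male replicate 1 or one of the undifferentiated male pair (adjusted p up to 0.214). None of the 3 differences between lines in these responses passed for either gene in the model of all libraries. Without differentiated male replicate 1, the Pcdh11x response was called higher in the RlimKO-labelled line than in males (edgeR adjusted p = 0.0174).

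Pcdh17, known from axon bundling in the forebrain, had 0 and 0 CPM in WT female, 0 and 0.426 in RlimKO-labelled and 0.743 and 0.2204 in male libraries before differentiation. Afterwards it had 21.1 and 14.6 CPM in WT female, 1.59 and 8.05 in RlimKO-labelled and 11.3 and 0.967 in male libraries. It rose at least 24.4-fold in WT females (edgeR adjusted p = 0.0021), 24.4-fold (counting interval 4.11 to 991) in the RlimKO-labelled line (edgeR adjusted p = 0.0454) and 10.2-fold (counting interval 3.33 to 51.03) in males (edgeR adjusted p = 0.0249). The RlimKO-labelled call was lost in 9 of the 12 fits without a library (adjusted p up to 0.434), and the male one without differentiated replicate 1 or one of the undifferentiated male pair (adjusted p up to 0.306). Pcdh12, an endothelial protocadherin, stayed under 6 CPM, with 0.525 and 0 CPM in WT female, 0 and 0 in RlimKO-labelled and 0 and 0.441 in male libraries before differentiation. Afterwards it had 3.75 and 3.18 CPM in WT female, 2.13 and 3.17 in RlimKO-labelled and 5.51 and 0.752 in male libraries. It was called in WT females (14.03-fold (counting interval 2.34 to 572), edgeR adjusted p = 0.0472), in the RlimKO-labelled line (at least 3.84-fold, edgeR adjusted p = 0.0303) and in males (8.199-fold (counting interval 2.09 to 70.7), edgeR adjusted p = 0.0339). These calls were lost in 10, 4 and 6 of the 12 fits without a library (adjusted p up to 0.25, 0.153 and 0.328). The summed blood and endothelial markers followed the same order of male libraries, 595 against 69.1 CPM. So did the fibroblast markers, at 9672 against 3094 CPM, and the order is not particular to Pcdh12. The part of either cell type in the Pcdh12 values was not tested.

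Pcdh9 and Pcdh10, both known from the nervous system, stayed under 5 CPM. Pcdh9 had 1.05 and 0 CPM in WT female, 0.584 and 0 in RlimKO-labelled and 0 and 0 in male libraries before differentiation. Afterwards it had 4.93 and 3.44 CPM in WT female, 0 and 0.732 in RlimKO-labelled and 1.61 and 1.396 in male libraries. It rose in WT females by 8.60-fold (counting interval 2.22 to 73.6) (edgeR adjusted p = 0.0335) and in males by at least 3.53-fold (edgeR adjusted p = 0.0149), and was not called in the RlimKO-labelled line (edgeR adjusted p = 0.7). Pcdh10 had 0 and 0 CPM in WT female, 0 and 0 in RlimKO-labelled and 0.743 and 0 in male libraries before differentiation. Afterwards it had 3.16 and 3.44 CPM in WT female, 1.06 and 1.22 in RlimKO-labelled and 4.59 and 0.322 in male libraries. It rose in WT females by at least 4.38-fold (edgeR adjusted p = 0.0374) and did not pass in the other lines. The WT female calls of Pcdh9 and Pcdh10 were lost in 4 and 6 of the 12 fits without a library (adjusted p up to 0.246 and 0.151), and the male call of Pcdh9 was lost on leaving out undifferentiated male replicate 1 or 2 (adjusted p up to 0.117). The untested Pcdh8 and Pcdh15 reached at most 1.22 CPM.

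**Figure D4:**
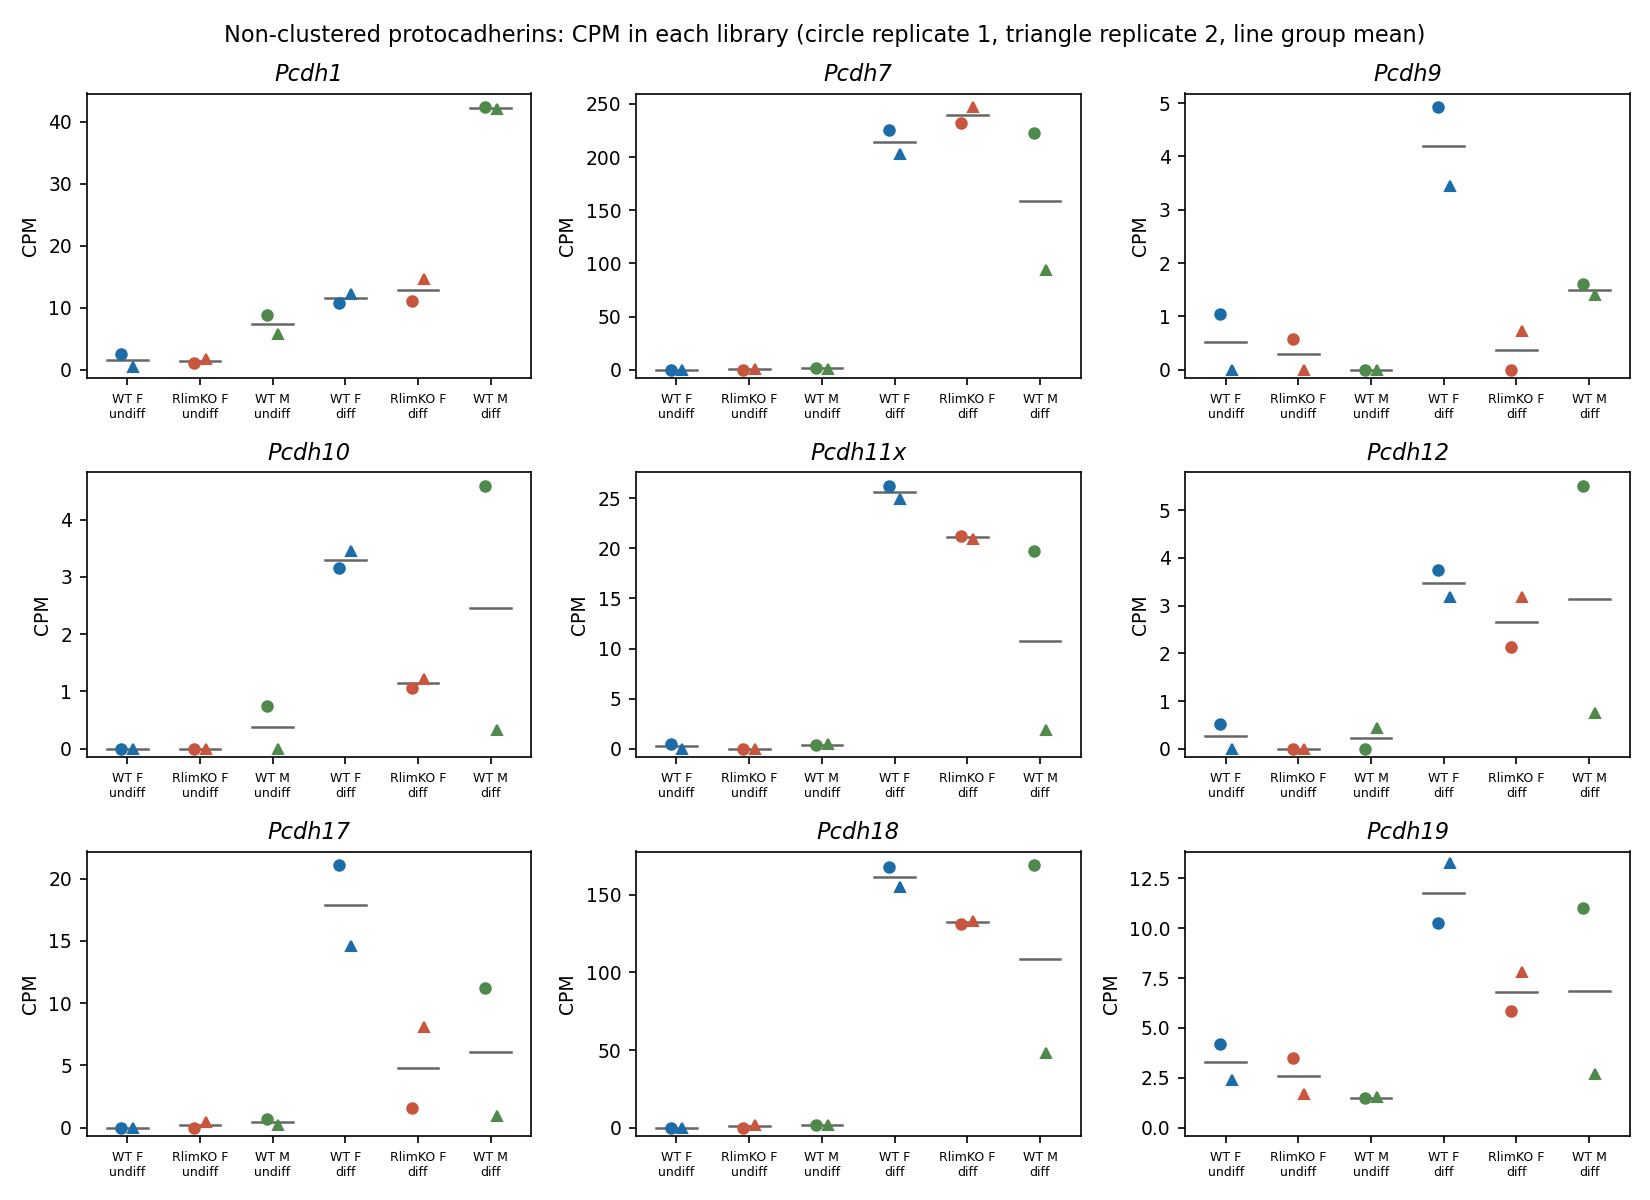
CPM (vertical axis, linear, its range set for each gene) of the 9 tested non-clustered protocadherins in each library (F female, M male; circle replicate 1, triangle replicate 2, grey line the group mean). Pcdh7 and Pcdh18 reach 247 and 169 CPM in differentiated libraries, Pcdh1 is highest in males in both states, and differentiated male replicate 2 lies below replicate 1 in every panel.

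The 3 protocadherin clusters lie in tandem on chromosome 18, in the order Pcdha, Pcdhb, Pcdhg, and Pcdhg counts exceeded those of the other clusters in every library. Summed over 22 genes, Pcdhg counts came to 38.3 and 50.5 CPM in undifferentiated WT female, 70.6 and 58.0 in RlimKO-labelled and 46.1 and 29.1 in male libraries. After differentiation they came to 236 and 235 CPM, 249 and 240.4 CPM, and 302 and 151 CPM in the same order. Pcdhb genes summed to at most 1.43 CPM in any undifferentiated library and to 29.2 and 21.99 CPM in differentiated WT female, 9.03 and 11.2 in RlimKO-labelled and 13.8 and 1.72 in male libraries. Pcdha genes summed to at most 0.661 CPM before and to between 2.56 and 4.39 CPM after differentiation. The annotated Pcdhg genes share between 31.5% and 100% of their exon bases with other genes, mostly through the constant exons, so how the counting split or discarded shared reads is uncertain and each Pcdhg value is too.

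All 22 Pcdhg genes were tested. Among WT females 15 rose, 14 did so in the RlimKO-labelled line, 16 in males, and none fell. Of all tested genes 26.5%, 26.4% and 28.7% rose in these lines. The Pcdhg counts are a description only, because 14 of the 22 genes were abundant enough to be tested through differentiated libraries alone. Pcdhgc3, a C-type isoform at the end of the cluster that is known as broadly expressed, was the highest in every differentiated library, with 9.98 and 8.58 CPM in WT female, 7.59 and 6.82 in RlimKO-labelled and 11.9 and 4.85 in male libraries before differentiation. Afterwards it had 59.4 and 52.2 CPM in WT female, 42.5 and 45.6 in RlimKO-labelled and 71.2 and 72.6 in male libraries. It rose by log2 fold changes of 2.59 ± 0.30 in WT females (edgeR adjusted p = 7.82e-06), 2.62 ± 0.32 in the RlimKO-labelled line (edgeR adjusted p = 1.37e-05) and 3.19 ± 0.29 in males (edgeR adjusted p = 4.34e-07). The differentiated male libraries lay close to each other in this gene, unlike in Cdh11 or Pcdh18, and the male value was 3.30 ± 0.24 and 3.27 ± 0.25 without differentiated replicate 1 or 2. Of the 16 male Pcdhg calls, those of Pcdhga6 and Pcdhga12 were lost without differentiated replicate 1 (adjusted p = 0.236 and 0.0647) and none without replicate 2. The 19 A- and B-type genes had medians of 0.661 to 2.92 CPM per undifferentiated library, 8.74 to 9.56 CPM in differentiated female libraries, and 11.5 and 2.79 CPM in the differentiated male ones.

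Pcdhga10, whose annotated exons are all shared, had 0 and 1.91 CPM in WT female, 2.34 and 2.13 in RlimKO-labelled and 0 and 0.441 in male libraries before differentiation. Afterwards it had 13.02 and 17.2 CPM in WT female, 17.0 and 15.1 in RlimKO-labelled and 14.9 and 4.51 in male libraries, and rose in WT females (3.88 ± 0.81, edgeR adjusted p = 0.0012), the RlimKO-labelled line (2.83 ± 0.71, edgeR adjusted p = 0.00441) and males (28.3-fold (counting interval 7.65 to 237), edgeR adjusted p = 3.75e-04). Pcdhga11 had 2.63 and 2.86 CPM in WT female, 4.67 and 1.705 in RlimKO-labelled and 2.60 and 1.54 in male libraries. It later stood at 11.05 and 11.7 CPM in WT female, 15.9 and 11.2 in RlimKO-labelled and 15.4 and 6.45 in male libraries, and also rose in each line, by 2.03 ± 0.56, 2.13 ± 0.56 and 2.40 ± 0.53. Pcdhga8 had 2.63 and 3.81 CPM in WT female, 5.25 and 4.26 in RlimKO-labelled and 5.57 and 1.98 in male libraries. It later stood at 9.27 and 14.6 CPM in WT female, 12.2 and 8.78 in RlimKO-labelled and 13.8 and 2.79 in male libraries, with a rise in WT females alone called (1.86 ± 0.72, edgeR adjusted p = 0.0446), and none of the differences between lines in its response passed. Without differentiated male replicate 1 its response was called higher in WT females than in males (2.08 ± 0.72, edgeR adjusted p = 0.0379). Pcdhga7 had 1.05 and 0.953 CPM in WT female, 0.584 and 0 in RlimKO-labelled and 2.23 and 2.65 in male libraries. It later stood at 13.2 and 10.9 CPM in WT female, 19.7 and 15.1 in RlimKO-labelled and 14.2 and 2.36 in male libraries, and rose in both female lines. Pcdhgb4 had 0 and 1.43 CPM in WT female, 2.34 and 2.13 in RlimKO-labelled and 1.11 and 0.441 in male libraries. It later stood at 9.86 and 11.9 CPM in WT female, 11.7 and 11.7 in RlimKO-labelled and 19.7 and 4.73 in male libraries, and rose in all 3 lines. Pcdhga1, the first gene of the cluster, and Pcdhgb1 were the Pcdhg genes called in no line. Pcdhga1 had 7.88 and 4.29 CPM in WT female, 8.17 and 7.67 in RlimKO-labelled and 3.34 and 2.65 in male libraries before differentiation. Afterwards it had 5.13 and 7.42 CPM in WT female, 4.25 and 6.83 in RlimKO-labelled and 2.76 and 1.504 in male libraries, with fold changes of 0.04 ± 0.49, -0.46 ± 0.50 and -0.54 ± 0.54 that were not called. Pcdhgb8 had 0.525 and 1.91 CPM in WT female, 7.59 and 6.39 in RlimKO-labelled and 3.71 and 3.75 in male libraries. It later stood at 7.30 and 8.21 CPM in WT female, 6.38 and 7.32 in RlimKO-labelled and 13.8 and 2.90 in male libraries, and rose in WT females (2.60 ± 0.81, edgeR adjusted p = 0.0155) but was not called in the RlimKO-labelled line (-0.01 ± 0.64). Pcdhga8, Pcdhgb8 and Pcdhga11 lost their WT female calls in 8, 2 and 2 of the 12 fits with a library removed (adjusted p up to 0.214, 0.137 and 0.0627). The RlimKO-labelled calls of Pcdhgb4, Pcdhga10 and Pcdhga11 were lost in 3, 1 and 1 of these fits (adjusted p up to 0.129, 0.0575 and 0.127).

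In the Pcdhb cluster, whose genes do not splice to constant exons, 21 of 22 genes had counts in differentiated WT females, against 15 in the RlimKO-labelled cells and 13 in males, and 2, 1 and 0 did in the undifferentiated groups. The median gene had 5, 1 and 2 counts in the differentiated groups, and depth was not equal between groups. The share of all genes with counts is not given here, so these numbers are a description only. Only Pcdhb19 and Pcdhb22 were abundant enough to test. Pcdhb22 had 6.31 and 4.24 CPM in WT female, 1.06 and 1.71 in RlimKO-labelled and 1.38 and 0 in male libraries after differentiation and was called in no line (edgeR adjusted p = 0.0601, 0.0937 and 0.156). Pcdhb19 had 3.16 and 2.91 CPM in WT female, 1.06 and 1.71 in RlimKO-labelled and 2.53 and 0.215 in male libraries, and was called in males alone, by at least 2.29-fold (edgeR adjusted p = 0.0476), a call lost in 11 of the 12 fits without a library, with adjusted p up to 0.264. Counts were higher toward the end of the cluster that adjoins Pcdhg, with a Spearman rho of 0.69 between gene order and counts over the 22 genes, which share libraries and differ in exon length. The other 19 Pcdhb genes with counts reached at most 2.76 CPM in any library. In the Pcdha cluster only Pcdhac2, a C-type isoform next to the constant exons, could be tested, with 0 and 0 CPM in WT female, 0 and 0 in RlimKO-labelled and 0 and 0.441 in male libraries before differentiation. Afterwards it had 1.97 and 2.65 CPM in WT female, 2.13 and 3.41 in RlimKO-labelled and 2.296 and 2.79 in male libraries. It rose at least 3.02-fold in WT females (edgeR adjusted p = 0.0119), at least 4.07-fold in the RlimKO-labelled line (edgeR adjusted p = 0.00793) and 9.52-fold (counting interval 2.45 to 81.6) in males (edgeR adjusted p = 0.0134). These calls were lost in 3, 2 and 1 of the 12 fits without a library, with adjusted p up to 0.0711, 0.0703 and 0.0969. No other Pcdha gene had more than 3 counts in all libraries together.

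**Figure D5:**
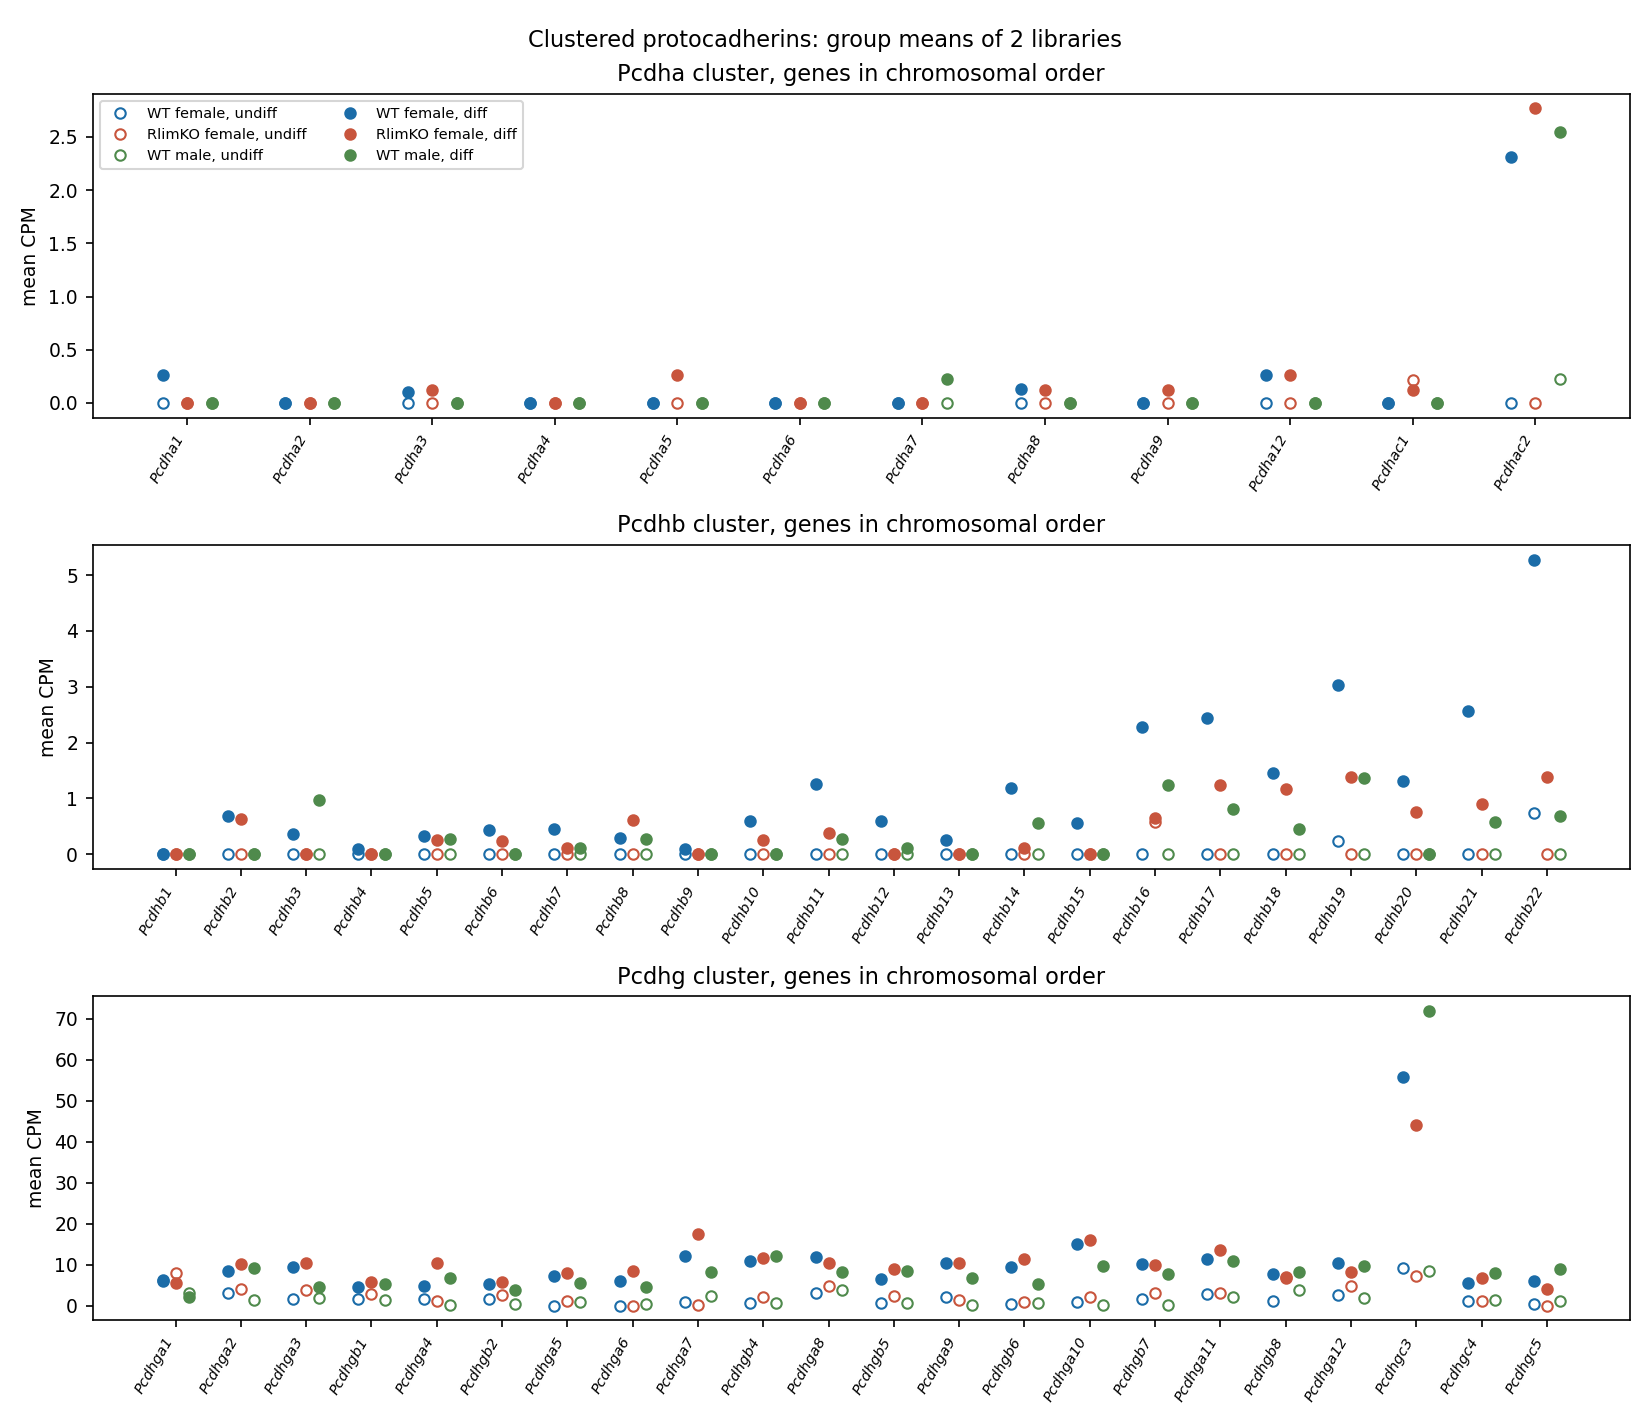
Mean CPM of 2 libraries (vertical axis, linear, scaled for each cluster) of the Pcdha, Pcdhb and Pcdhg genes in chromosomal order, with open circles for undifferentiated and filled circles for differentiated groups. Pcdhac2 and Pcdhgc3 stand above their clusters, Pcdhb values are higher toward the right end, and the WT female values lie above the others for most Pcdhb genes.

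Between lines few members differed, and the comparisons of both female lines with males share the male libraries. Pcdh1, an epithelial and brain protocadherin on chromosome 18, was lower in females than in males. Undifferentiated libraries held 2.63 and 0.477 CPM in WT female, 1.17 and 1.705 in RlimKO-labelled and 8.91 and 5.73 in male libraries, and differentiated ones 10.9 and 12.2 CPM in WT female, 11.2 and 14.6 in RlimKO-labelled and 42.5 and 42.1 in male libraries. No female library reached the male range in either state. It was the 1 member called between undifferentiated WT females and males (-2.22 ± 0.54, edgeR adjusted p = 0.0254), where 6.63% of all genes were called. After differentiation the difference was -1.88 ± 0.30 (edgeR adjusted p = 0.00208). The RlimKO-labelled line lay below males too, at -2.25 ± 0.54 undifferentiated (edgeR adjusted p = 0.0173) and -1.68 ± 0.31 differentiated (edgeR adjusted p = 0.00363). The undifferentiated calls were lost without male replicate 1 (adjusted p = 0.163 and 0.127), WT female replicate 2 (adjusted p = 0.226), or RlimKO-labelled replicate 1 or 2 (adjusted p = 0.126 and 0.139). The differentiated calls were lost without WT female replicate 1 (adjusted p = 0.0512) or RlimKO-labelled replicate 1 (adjusted p = 0.0531). Pcdh1 itself rose with differentiation in every line, by 2.90 ± 0.50, 3.13 ± 0.51 and 2.56 ± 0.33 on the log2 scale (edgeR adjusted p = 2.57e-04, 1.51e-04 and 1.25e-05).

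The other calls against males were lost on leaving out single libraries, and the number of members called turned on the differentiated male pair. In undifferentiated cells too, leaving out a library of that pair raised it. The share of all genes called in such fits is not given here, so a higher number is not particular to the members. Between differentiated WT females and males 2 members were called, where 8.97% of all genes were: Pcdh1 and Cdh11, which was higher in WT females by 1.69 ± 0.49 (edgeR adjusted p = 0.0449) and lost its call in 10 of the 12 fits without a library, with adjusted p up to 0.19. Without differentiated male replicate 1 or 2 it was 3.42 ± 0.18 or 0.90 ± 0.15, called in both. Between undifferentiated RlimKO-labelled and male libraries the 2 called, against 10.0% of all genes, were Pcdh1 and Pcdhgb7. Pcdhgb7 had 1.58 and 1.91 CPM in WT female, 1.75 and 4.26 in RlimKO-labelled and 0 and 0.2204 in male libraries, a difference of 23.2-fold (counting interval 3.48 to 984) (edgeR adjusted p = 0.0129) that was lost without RlimKO-labelled replicate 2 (adjusted p = 0.182) or either undifferentiated male library (adjusted p = 0.0746 and 0.0648). Between the differentiated groups of these lines the 2 called, against 11.6% of all genes, were Pcdh1 and Cdh6, lower at -1.60 ± 0.49 (edgeR adjusted p = 0.0478) and lost in 11 of the 12 fits without a library, with adjusted p up to 0.498.

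No member was called between the RlimKO-labelled and WT female lines, where edgeR called 0.242% of all genes undifferentiated and 2.59% differentiated. At an unadjusted edgeR p under 0.05 there were 2 of 42 members in each state. Of all 12814 tested genes there were 1289 undifferentiated and 1872 differentiated. DESeq2 called 0 members. Differences of the 3 tested type I genes after differentiation did not pass. In the RlimKO-labelled line against WT females, Cdh1 was at -0.42 ± 0.39 (edgeR adjusted p = 0.698), Cdh2 at -0.44 ± 0.20 (edgeR adjusted p = 0.307) and Cdh3 at -0.39 ± 0.32 (edgeR adjusted p = 0.634). All lines share 1 estimate of spread, to which the discordant differentiated male libraries contribute. Without male replicate 1 or 2 more members were called in the differentiated comparison, and a model of the 4 libraries alone called 7. The share of all genes called in these fits is not given here, so the calls cannot be read as particular to the members. In these 3 fits Pcdh17 (-1.69 ± 0.38, -1.67 ± 0.36 and -1.62 ± 0.33), Pcdh9, Pcdhb22, Cdh1, Cdh2 and Cdh3 were called lower in the RlimKO-labelled line. Called higher there were Cdh16 without male replicate 1 or 2 (2.12 ± 0.74 and 2.13 ± 0.72), and Pcdhga4 without replicate 2 (1.10 ± 0.39) and in the model of 4 libraries (1.14 ± 0.32). Cdh1 was -0.47 ± 0.14, -0.45 ± 0.14 and -0.42 ± 0.12 in the same order (edgeR adjusted p = 0.0173, 0.023 and 0.0149). In undifferentiated cells Pcdhgb8 was higher in the RlimKO-labelled line, by 2.46 ± 0.67 and 2.44 ± 0.65 without differentiated male replicate 1 or 2. A model of the undifferentiated female libraries alone gave 2.44 ± 0.71 (edgeR adjusted p = 0.0482). Whether these members differ between the female lines thus depends on the male libraries in the model. In the model of all libraries 4 of 7 tested cardiac, 4 of 10 pluripotency, 3 of 9 visceral endoderm and 1 of 7 neural markers were also called lower in the differentiated RlimKO-labelled line and none higher, with median log2 differences of -2.15, -0.95, -1.30 and 0. Summed visceral endoderm markers stood at 231 and 215 CPM against 529 and 554 in WT females. Cardiac markers stood at 54.7 and 57.8 against 227 and 199 CPM, of which Ttn alone held 27.6 and 32.4 against 138 and 127. Pluripotency markers stood at 131 and 112 against 224 and 219 CPM. No fibroblast, blood and endothelial or simple epithelial marker was called. Their sums were higher in the RlimKO-labelled line, at 11777 and 11497 against 8438 and 7275 CPM for fibroblast. They stood at 269 and 286 against 164 and 163 CPM for blood and endothelium, and 452 and 480 against 384 and 395 for simple epithelium. The part of any of these markers was not tested. The summed Pcdhb level, with 2 libraries against 2, cannot reach an exact two-sided permutation p below 0.333.

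No difference between lines in the response to differentiation passed for any member in edgeR, where 0.203% of all genes differed between the female lines, 1.39% between WT females and males, and 2.61% between the RlimKO-labelled line and males. At an unadjusted edgeR p under 0.05 there were 1, 4 and 2 of 42 members. Of all 12814 tested genes there were 1262, 1958 and 2273. DESeq2 called 0 members in each. Against males, the members called turned on which differentiated male library was left out. The Cdh1 response of the RlimKO-labelled line against males then had opposite signs. It was -1.21 ± 0.20 without differentiated male replicate 1 and 0.78 ± 0.23 without replicate 2. For Cdh1 the RlimKO-labelled minus the WT female response was -0.65 ± 0.54 (edgeR adjusted p = 0.752). Without differentiated male replicate 1 or 2 this was -0.72 ± 0.19 and -0.69 ± 0.19, and was called (edgeR adjusted p = 0.0149 and 0.0218), as was Pcdhgb8 (-2.65 ± 0.78 and -2.61 ± 0.76).

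Genes that act on or with cadherins were read from lists. Transcriptional repressors of Cdh1 rose: all 6 in WT females, 5 in the RlimKO-labelled cells, and 6 in males. Zeb2 went from 2.34 ± 2.63 to 156 ± 4.09 CPM (mean ± SD, n = 2) in WT females, 4.47 ± 0.289 to 156 ± 12.3 in the RlimKO-labelled line and from 1.49 and 1.54 to 171 and 50.7 CPM in the male libraries. Snai2 (Slug) reached 21.2 ± 5.21 and 49.01 ± 2.07 CPM in the female lines and 45.7 and 23.3 CPM in the male libraries, from under 1 CPM in each line. Of 13 tested catenins and anchors, 4 rose and 2 fell in WT females, 4 rose and 1 fell in the RlimKO-labelled line, and 6 rose and 2 fell in males. Of all tested genes 26.5%, 26.4% and 28.7% rose and 22.2%, 21.6% and 25.4% fell, so the female catenin counts stand near those of all genes. Vcl (vinculin, an actin anchor) rose by 1.98 ± 0.19, 1.48 ± 0.19 and 1.46 ± 0.18, and Ctnnd1 (p120 catenin, which keeps cadherins at the membrane) by 0.63 ± 0.19, 0.70 ± 0.19 and 1.10 ± 0.19. Pkp4 fell, at -1.07 ± 0.21, -0.996 ± 0.22 and -0.91 ± 0.20. Ctnnb1 (beta-catenin) rose in the female lines by 0.36 ± 0.14 and 0.50 ± 0.14, and was not called in males, at 0.14 ± 0.13. Over all tested genes the median change was 0.09, 0.10 and 0.05 in the 3 lines, and that of the catenin list 0.36, 0.39 and 0.18.

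Of the 5 tested desmosomal cadherins and plaque proteins, 3 rose and 1 fell in WT females, 3 rose and 1 fell in the RlimKO-labelled line, and 4 rose in males. Over all tested genes 26.5%, 26.4% and 28.7% rose and 22.2%, 21.6% and 25.4% fell in the 3 lines. The counts of these short lists are a description only. Dsp (desmoplakin, which ties desmosomes to keratin) rose by 2.70 ± 0.15, 2.67 ± 0.15 and 2.58 ± 0.14, and Dsc2, a desmosomal cadherin, by 5.21 ± 0.54, 4.38 ± 0.50 and 4.08 ± 0.45, while Cdh1 fell. More distant members of the cadherin superfamily split: of 13 tested, 5 rose and 6 fell in WT females, and 4 rose and 6 fell in each other line. Fat4 and Dchs1, a receptor and ligand pair of planar polarity, rose together. Dchs1 went from 0.525 ± 0.743 to 82.5 ± 0.834 CPM in WT females, and Fat4 from 0 to 175 ± 11.3, 0 to 87.5 ± 4.03 in the RlimKO-labelled line, and from 1.49 and 0.661 to 194 and 32.2 CPM in the male libraries. Fat2 fell, at -4.38 ± 0.50, -5.07 ± 0.72 and -5.99 ± 0.52, and the calsyntenin Clstn3 likewise, at -2.90 ± 0.34, -3.28 ± 0.40 and -1.67 ± 0.29. Of 10 known regulators of the protocadherin clusters, which act through DNA methylation, chromatin loops and cohesin, 7, 3 and 6 fell and none rose. In the RlimKO-labelled line, 3 of 10 stands near the 21.6% of all tested genes that fell. Dnmt3b, which methylates clustered promoters, went from 105 ± 8.73 to 22.2 ± 3.48 CPM in WT females and fell in each line, at -2.25 ± 0.20, -2.93 ± 0.22 and -2.73 ± 0.19. The cohesin subunit Smc1a fell, at -1.11 ± 0.16, -1.03 ± 0.17 and -0.61 ± 0.16.

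Over the 12 libraries, which span 2 states, the genes whose log2 CPM ran closest to Cdh1 among 7746 compared were Rtkn2 (Pearson r = 0.986), the stem cell factor Tfcp2l1 (0.984), Ildr1 (0.980), Nodal (0.977) and Rnf138 (0.975). Those closest to Cdh2 were Adamts2 (0.997), Zfpm1 (0.994), Sdk1 (0.994), Prickle1 (0.993) and Masp1 (0.993). These values are a description of libraries that share their differentiation state.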

How the data were processed

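The authors deposited counts of reads per gene for 12 libraries, made by template-switching reverse transcription, amplification and tagmentation per the labels' protocols. The submitters' processing notes name HTSeq 0.6.1p1, TopHat2 2.0.12, bcl2fastq 2.16.0.10, edgeR 3.10.0 and the mm10 build, without their roles. Neither the gene annotation nor the strand option used in counting is given in the sources used here. No molecular identifiers were described, so intervals and floors cover counting error only. The 5 rows that name no gene were left out. They held, as a share of all reads, 45.4% to 53.3% in no feature and 0.241% to 0.926% ambiguous.

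Counts were fitted with edgeR 4.0.16 in R 4.3.3: 1 model with 6 group means, TMM scaling, the default expression filter (2.796 CPM in at least 2 samples) and the quasi-likelihood F test, adjusted by Benjamini-Hochberg over 12814 genes. Self-tests on simulated counts were run first. CPM use TMM-scaled library sizes. Fold changes are log2, or, against a group at 0 counts, a lower bound from 3 counts over the group, or, from 1 to 3 counts, a ratio with an exact 95% interval. Alternatives were RLE factors, DESeq2 1.42.0, other filters, Rn45s and Lars2 left out, a replicate block, only the compared samples, and each library left out. The labels do not say that replicates were separate cultures, so p-values measure only how far these samples spread, which may be technical variation.

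Exon positions came from GENCODE M21, which placed 90 of the 93 members, and promoter sequences from RefSeq on GRCm38.p6, which held 22 members. The members and gene lists were chosen with earlier results of these data known. Values by sample are given for every tested member outside the clusters and, in the clusters, for the 6 tested members with the highest mean CPM and for called members that the text turns on. The other called Pcdhg genes are given by range. From each partner list up to 4 called members with the smallest p were named, and the 5 genes of at least 10 CPM most like Cdh1 and Cdh2, leaving out predicted genes. Pcdhga1 and Pcdhgb8 were picked after their values were seen.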

Additional observations from a re-analysis of the deposited data

How the results depend on the processing

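Of 99 calls of a member in a comparison, 52 held in each of the 12 fits with a library removed and in each other alternative run (18 of 31 for differentiation in WT females, 15 of 28 in the RlimKO-labelled line, 19 of 33 in males, 0 of 7 between lines), and none reversed. Leaving out a library gave 21 to 42 members called for differentiation in WT females, 18 to 37 in the RlimKO-labelled line and 20 to 42 in males. It gave 0 to 1 and 0 to 8 for RlimKO-labelled against WT females (undifferentiated, differentiated), 0 to 8 and 0 to 30 for WT females against males, 0 to 8 and 0 to 32 for the RlimKO-labelled line against males, and 0 to 2, 0 to 9 and 0 to 8 for the 3 differences between responses. A lone library left in a group was assumed to vary like the other groups. The highest counts came without a differentiated male library. The share of all genes called in these fits is not given here, so the counts are not particular to the members. A fit of only the compared samples called 1 and 7 members between the female lines, 0 for both differentiated comparisons with males, and 2 for the difference between the female responses. Without a filter 1 was called between the differentiated female lines, 4 and 9 between WT females and males, 6 and 7 between the RlimKO-labelled line and males, and 4 and 2 for the differences of the female responses from the male one. That fit also tested members too low for the main model, such as Cdh9 and Cdh18, so its counts are not comparable with the main ones. DESeq2 called 1 for each differentiated comparison with males. The cause was not tested. The replicate numbers did not pair the samples: 1 of 15 pairs of groups had correlated deviations above 0.1 (range -0.064 to 0.212). With the replicate block 32, 28 and 31 members were called for differentiation and 0, 0, 1, 2, 2 and 2 between lines. Depth limits the Pcdha and Pcdhb genes most, since nearly all had under 40 counts in all libraries together.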
